A study of Mus musculus with 9 samples.

Results

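Cells labelled as microglia and sorted 3 d after a transient ischemic attack (TIA) were compared with those sorted 24 h after it. The comparison used the samples titled TIA 24h 1 to 3 and TIA 3d 1 to 3, which are 6 of the 9 in the series. The other samples, 3 Sham animals, entered the test only as an estimate of the spread within a group. Transcripts were counted with an nCounter neuroinflammation panel, which hybridises barcoded probes to RNA and counts single molecules without amplification, and the deposited table holds 757 genes. All animals were wild-type C57BL6/J mice aged 10 to 12 weeks, with 3 mice and 3 samples per group. In both TIA groups a filament was pushed up to the middle cerebral artery and withdrawn after 5 min, and Sham mice had the surgery without the filament. The groups thus share genotype and procedure and differ in the time to sampling. The cells were dissociated with papain, enriched on Percoll and sorted as live (7-AAD-negative) CD45+CD11b+ cells. That gate does not by itself separate microglia from other CD11b+ myeloid cells of the brain, and the study calls the sorted cells microglia-like. In the TIA 24h lanes the 23 measured oligodendrocyte genes took 4.40% to 7.38% of counts and the 10 measured homeostatic microglial genes 1.38% to 2.77%. In the Sham lanes these shares ran from 1.13% to 7.66% and from 2.04% to 13.7%. The time at which Sham mice were sampled is not given in the sources used here.

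Microglia are the resident macrophages of the brain. Their identity depends on signalling through the CSF1 receptor and through TGF-beta, and they survey the tissue with purinergic and chemokine receptors. After ischemia they take up debris through complement, TREM2 and Fc receptors, degrade it in lysosomes and release cytokines such as interleukin-1. Genes below are described in that order, followed by the markers of other brain and blood cells. Because each sample is bulk RNA, fewer cells of a type and less RNA per cell cannot be told apart.

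The 2 groups differed in depth. The values were deposited as log2 of normalized counts, and whole counts were recovered from them by finding the value of a single count in each lane. Total recovered counts were 10929, 7924 and 7248 in TIA 24h mice (mean 8700 ± 1959, SD, n = 3) and 51533, 29200 and 62883 in TIA 3d mice (47872 ± 17137, n = 3), a 5.50-fold difference of the means. The lane factors, which turn counts into normalized values, ran from 1.58 to 1.89 in TIA 24h mice and from 0.548 to 0.853 in TIA 3d mice. A gene with the same recovered count in all 6 lanes therefore has a log2 difference of -1.46 between the groups. Depth and time after TIA cannot be told apart. Median counts over genes were 11, 9 and 8 in the TIA 24h lanes and 22, 17 and 22 in the TIA 3d lanes, so single genes in TIA 24h mice often rest on about 10 counts. Across the 9 lanes the totals ran from 6560, in a Sham lane, to 62883.

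Of the 757 genes, 145 passed an adjusted p of 0.05 (19.2% of those tested, limma with Benjamini-Hochberg adjustment). Normalized values were higher in TIA 3d mice for 88 of them (11.6%) and lower for 57 (7.53%). Adjusted p among these genes ran from 0.0229 to 0.0497, and 304 genes had an unadjusted p under 0.05. The 88 genes that rose had a median log2 difference of 2.07 (1.30 to 4.45), and their recovered counts lay apart in all 88 cases, with a median over genes of 13.3 counts in TIA 24h mice and 142 in TIA 3d mice. Over the whole panel the counts lay apart and higher in TIA 3d mice for 56.3% of genes. The log2 values lay apart for 48.3% of the panel, with 22.1% higher and 26.3% lower in TIA 3d mice. The 57 genes that fell had a median log2 difference of -1.66 (-2.94 to -1.25) and nearly equal median counts, 10 in TIA 24h mice and 8.67 in TIA 3d mice. For 46 of these 57 the difference lay within 0.5 of the -1.46 that equal counts give. The counts of 54 of the 57 overlapped between the groups, and those of 3, Mobp, Myrf and S100b, were lower in every TIA 3d lane than in any TIA 24h lane (0.396% of the panel). The direction of calls moved with the scaling. Median-centred lanes gave 123 higher (16.2% of the panel) and 21 lower genes (2.77%). Scaling to the lane total gave 34 higher (4.49%) and 310 lower (41.0%), and the median over all genes was a log2 difference of -0.25 as deposited, 0.09 and -1.19 in that order. Subtracting a lane background, the 10th percentile of its counts, with a floor of 1 count gave 57 higher (7.53%) and 37 lower calls (4.89%), 12.4% in all. Of the deposited calls, 53 of the 88 higher and 31 of the 57 lower genes kept theirs. At or below that percentile in all 3 TIA 3d lanes were 9 of the 57 lower genes (S100b, Ptx3, Timp1, Tbx21, Cpa3 and Ms4a2 among them), and in at least 1 of these lanes 36. Of the 88 higher genes, 3 were at or below it in all 3 TIA 24h lanes and 18 in at least 1. The size of these differences is therefore uncertain. Fcrls, Mertk, Ccl3, Ccl4, Ccl5, Nlrp3, Il1rn, Tnfrsf1a, Hpgds, Bcl2a1a, Pcna, Mal and Sox10, described below, were among the genes that lost their call after the background subtraction. Across both other scalings, 34 of the 88 higher genes and 21 of the 57 lower genes kept their call. No gene passed in limma fits that left out any 1 of 4 lanes, namely replicates 2 and 3 of TIA 24h and replicates 1 and 3 of TIA 3d, although 219, 241, 217 and 206 genes then had an unadjusted p under 0.05. Quantile normalization gave 7 called genes, 3 higher and 4 lower, with Il1a, Mobp, Myrf and Bcas1 among them, and 66 of the 70 named genes with a call lost it. With the log2 total count of the lane as a covariate no gene passed in limma (35 unadjusted), and 38 of the 94 named genes, with C1qc, Csf1r, Lgmn and Itgb5 among them, changed sign. The plot of mean recovered counts shows both sets of genes against the lines of equal counts and equal normalized values.

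**Figure D1:**
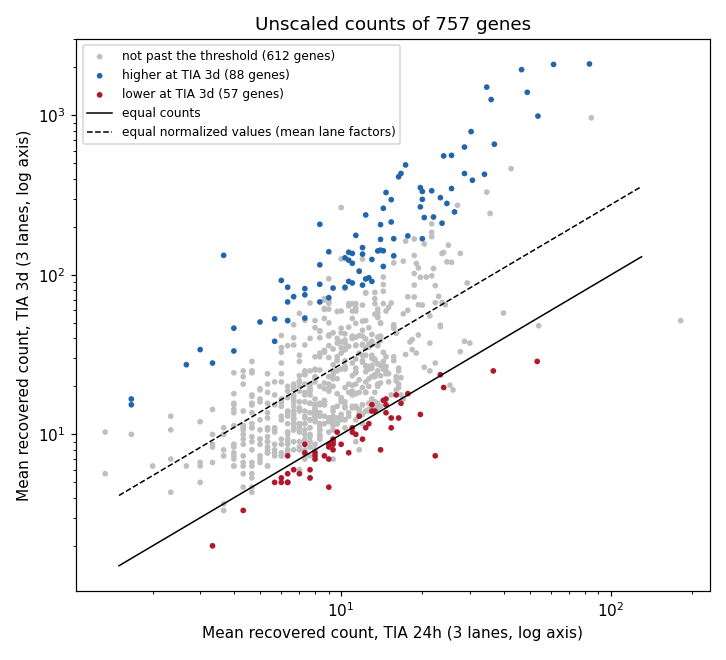
Mean recovered count in TIA 24h mice (horizontal, log axis) against TIA 3d (vertical, log axis), n = 3 animals each, for the 757 genes. Each point is a gene, coloured by its limma call, and the lines mark equal counts (solid) and equal normalized values (dashed). The 88 higher genes lie above the solid line and the 57 lower genes lie near it, with 54 of their 57 count ranges overlapping.

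Of 10 measured homeostatic microglial genes, which mark surveying microglia, 7 were called higher in TIA 3d mice and none lower, beside 11.6% and 7.53% of the panel. Their median log2 difference was 2.70, against -0.25 over all genes, and remained above 0 when median-centred (3.04) and when scaled to the lane total (1.75). Under the lane total 5 of the 10 were called higher and 1 lower (4.49% and 41.0% of the panel). After subtraction of a lane background 3 were called higher, beside 7.53% of the panel. Slco2b1, an organic anion transporter, had log2 values of 4.90, 4.59 and 3.24 in TIA 24h mice, from 19, 13 and 5 counts. At TIA 3d its log2 values were 7.58, 7.19 and 6.78, from 341, 171 and 201 counts. All 3 TIA 3d lanes lay above all TIA 24h lanes on both scales, and Slco2b1 rose by 2.94 (log2 difference, SE 0.76, limma adjusted p = 0.0304). Gpr34, a receptor for lysophosphatidylserine, had 31, 23 and 6 counts in TIA 24h mice and 399, 364 and 238 in TIA 3d mice, and rose by 2.86 log2 units (SE 0.83, adjusted p = 0.0379). Fcrls, an Fc receptor-like scavenger molecule of mouse microglia, rose by 2.54 (SE 0.72, adjusted p = 0.0373), but it was no longer called when lanes were scaled to their totals. Slc2a5, the microglial fructose transporter, did not pass (log2 difference 1.48, SE 0.56, adjusted p = 0.0733), and its difference was 0.96 without TIA 3d replicate 2. As a share of all counts in a lane, which does not depend on the lane factors, the 10 homeostatic genes made up 2.77%, 2.36% and 1.38% in TIA 24h mice and 7.48%, 10.5% and 4.38% in TIA 3d mice. The 2 TIA groups did not overlap in this share, while the Sham lanes ran from 2.04% to 13.7% and spanned both. Of the 30 lists, only those for disease-associated microglia, antigen presentation, chemokines, Toll-like receptors and eicosanoids overlapped in share between the 2 TIA groups.

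Regulators of microglial identity moved the same way. Among 10 measured genes of CSF1 and TGF-beta signalling and of lineage transcription factors, 7 rose and none fell, beside 11.6% and 7.53% of the panel. The list's median log2 difference was 2.37 (1.42 when scaled to the lane total, 2.70 when median-centred). Tgfbr1, a TGF-beta receptor chain, had log2 values of 6.44, 6.24 and 4.83 in TIA 24h mice and 9.13, 8.43 and 8.31 in TIA 3d mice, from 55, 41 and 15 and from 997, 405 and 578 counts. It rose by 2.79 log2 units (SE 0.70, adjusted p = 0.0254), with no overlap between the groups. Irf8, a transcription factor of the myeloid lineage, went from 9, 6 and 7 counts to 94, 48 and 83 and rose by 1.85 (log2 difference, SE 0.42, adjusted p = 0.0229), a call that was lost under the lane total. Csf1r, the receptor for CSF1 and interleukin-34, rose by 3.95 on the log2 scale, and TIA 24h replicate 3, with 10 counts, was the lowest of the 6 lanes. Mef2c, Sall1 and Tgfb1 also rose. Csf1, which encodes a ligand of the CSF1 receptor, had a log2 difference of 0.53 and did not pass.

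Complement genes did not all move. The 3 chains of C1q, the recognition molecule that opens the classical pathway, and the receptors C3ar1 and Itgam rose, whereas C3, C4a, C5ar1, C6 and Serping1 did not pass. Over the panel 11.6% of genes rose. C1qc had log2 values of 7.24, 6.79 and 5.73 in TIA 24h mice, from 96, 60 and 28 counts. At TIA 3d its values were 10.35, 9.71 and 10.66, from 2326, 983 and 2958 counts. The groups did not overlap, and C1qc rose by 3.65 log2 units (SE 0.74, adjusted p = 0.0229). C1qa rose by 3.38 (SE 0.72) and C1qb by 3.34 (SE 0.82) on the same scale, with adjusted p of 0.0229 and 0.0245. After quantile normalization the differences of C1qa, C1qb and C1qc were 0.45, 0.34 and 0.59 and none was called. C3ar1, the receptor for the C3a fragment, had 27, 16 and 27 counts in TIA 24h mice and 365, 139 and 411 in TIA 3d mice, and rose by 2.14 (log2 difference, SE 0.49, adjusted p = 0.0229). C3, the component that tags targets for uptake, had a log2 difference of -0.82 and did not pass. The median over the 10 complement genes was 1.39, or 1.73 when median-centred and 0.44 when scaled to the lane total. Under the lane total 4 of the 10 were called higher and 1 lower, beside 4.49% and 41.0% of the panel. Their share of all counts was 4.14%, 2.85% and 2.29% in TIA 24h mice and 13.6%, 10.1% and 13.9% in TIA 3d mice, and the highest Sham lane, at 9.88%, lay below each TIA 3d lane.

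In TREM2 and Fc receptor signalling 14 of 21 genes were higher and none lower, beside 11.6% and 7.53% of the panel. The median log2 difference was 1.87 (2.21 median-centred, 0.92 scaled to the lane total). Under the lane total 3 were called higher and 1 lower (4.49% and 41.0% of the panel). After background subtraction 7 were called higher, beside 7.53% of the panel. Trem2, a lipid receptor that drives uptake of debris, had log2 values of 5.05, 4.79 and 4.24 in TIA 24h mice and 7.47, 7.48 and 7.64 in TIA 3d mice. Its recovered counts were 21, 15 and 10 against 315, 209 and 365. Trem2 rose by 2.84 log2 units (SE 0.51, adjusted p = 0.0229), and the groups did not overlap. Tyrobp, the adaptor through which TREM2 signals, went from 20, 13 and 16 counts to 420, 235 and 582 and rose by 3.12 (log2 difference, SE 0.70, adjusted p = 0.0229). Inhibitory members were among the risers. Cd33, an inhibitory sialic acid receptor, rose by 1.87 (SE 0.43, adjusted p = 0.0229), and Inpp5d, the lipid phosphatase SHIP1, by 2.21 (SE 0.65, adjusted p = 0.0385) on the log2 scale, both without a call under the lane total. The other risers were the Fc receptor genes Fcer1g, Fcgr1, Fcgr2b and Fcgr3 and the signalling genes Plcg2, Lyn, Blnk, Ptpn6, Pik3cg and Dock2. Syk, the kinase recruited by TYROBP, had a log2 difference of 0.96 and did not pass, nor did Btk (1.01) or Trem1 (-0.62). The share of all counts was narrow within each group, from 3.06% to 3.47% in TIA 24h mice and from 5.97% to 6.40% in TIA 3d mice, with Sham lanes from 2.85% to 5.72%.

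Lysosomal genes rose in 6 of 10 measured cases and fell in none, beside 11.6% and 7.53% of the panel. All 10 had higher counts in every TIA 3d lane than in any TIA 24h lane, as had 56.3% of the panel. The median log2 difference was 2.01 (2.35 median-centred, 1.06 scaled to the lane total). Lgmn, the lysosomal cysteine protease legumain, had log2 values of 6.38, 5.47 and 5.68 in TIA 24h mice and 9.51, 9.19 and 10.44 in TIA 3d mice. The counts behind them were 53, 24 and 27 against 1302, 683 and 2532. Lgmn rose by 3.87 log2 units (SE 1.01, adjusted p = 0.0304), and its highest lane was TIA 3d replicate 3. Grn, which encodes progranulin, went from 50, 22 and 19 counts to 655, 276 and 1445 and rose by 3.07 (log2 difference, SE 0.70, adjusted p = 0.0229). Man2b1, a lysosomal mannosidase, went from 23, 26 and 11 counts to 332, 150 and 411 and rose by 2.40 (SE 0.55, adjusted p = 0.0229). Ctss, Ctsf and Lamp1 were the other genes that rose. The macrophage glycoprotein Cd68 (log2 difference 1.67) and Lamp2 (1.83) did not pass. The list made up 3.50%, 2.57% and 2.54% of counts in TIA 24h mice and 10.6%, 9.23% and 14.3% in TIA 3d mice, and the Sham lanes, at 9.28%, 5.12% and 1.60%, spanned the gap between them.

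Of 12 genes for recognition of apoptotic cells, 2 were higher and none lower, beside 11.6% and 7.53% of the panel. The list's median log2 difference was 0.14 and turned to -0.81 under the lane total. There 1 was called higher and 5 lower, beside 4.49% and 41.0% of the panel. The 2 higher genes as deposited were Itgb5, an integrin chain that pairs with Itgav to bind bridging proteins on dying cells, and the receptor kinase Mertk. Itgb5 had log2 values of 5.36, 5.06 and 3.92 in TIA 24h mice and 8.30, 7.97 and 8.39 in TIA 3d mice, from 26, 18 and 8 and from 563, 293 and 612 counts. It rose by 3.44 (log2 difference, SE 0.71, adjusted p = 0.0229) and Mertk by 1.93 (SE 0.63, adjusted p = 0.0474), the latter without a call under the lane total. The scavenger receptors Cd36 (log2 difference -0.98), Msr1 (-1.08) and Marco (-1.26) did not pass. Of 11 genes described for disease-associated microglia, a phagocytic state seen near plaques and lesions, only Ccl3 and Ccl4 passed, both higher (beside 11.6% of the panel). The median log2 difference of these 11 genes was -0.09 (0.25 median-centred, -1.04 under the lane total). It ran from -0.36 to 0.63 when single TIA lanes were left out. Apoe, the lipid carrier, had log2 values of 4.90, 3.21 and 3.51 in TIA 24h mice and 7.36, 5.53 and 7.93 in TIA 3d mice, but at a difference of 3.07 (SE 1.05) it did not pass (adjusted p = 0.0551). Spp1, which encodes osteopontin and was picked out after its values were seen, had 111, 3 and 140 counts in TIA 24h mice and 9, 7 and 2883 in TIA 3d mice. The 2883 counts of TIA 3d replicate 3 stood apart from every other lane, and the log2 difference was -0.81 (SE 1.84, adjusted p = 0.769). Cst7, Itgax, Clec7a, Axl and Igf1, further genes of that state, did not pass, with log2 differences from -1.05 to 0.95.

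**Figure D2:**
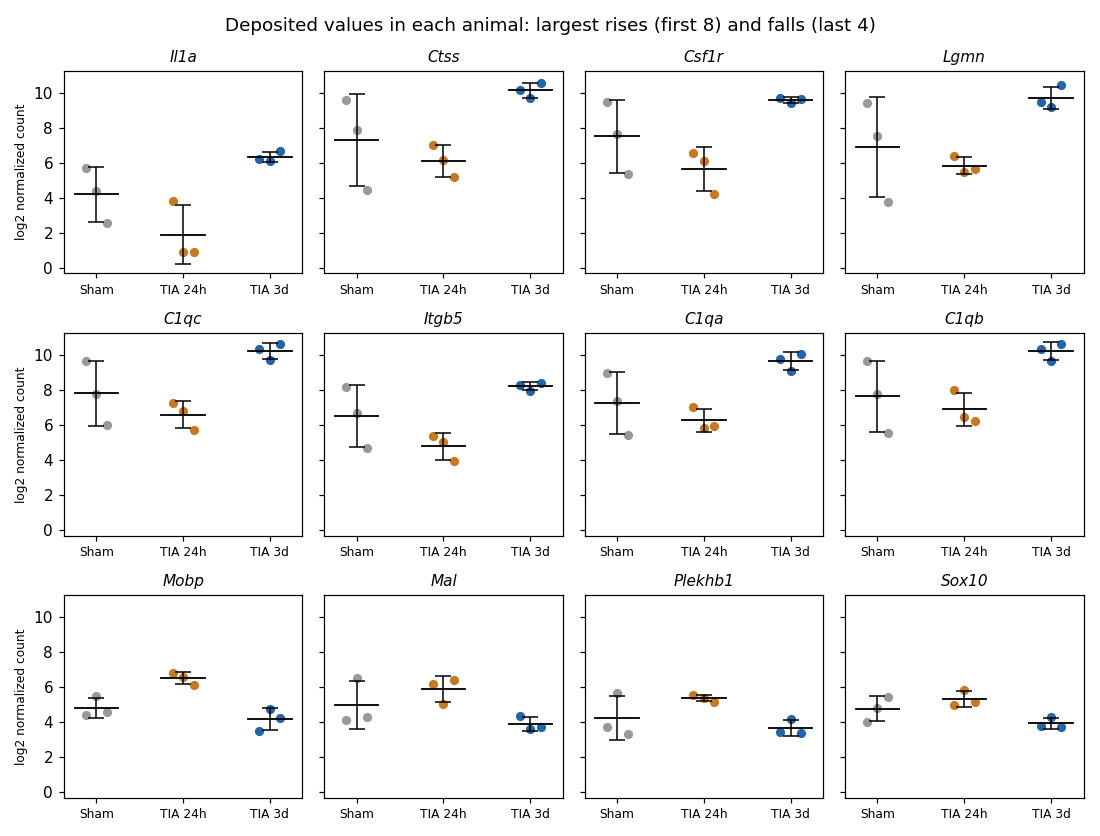
Deposited log2 normalized values of 8 genes that rose (Il1a, Ctss, Csf1r, Lgmn, C1qc, Itgb5, C1qa, C1qb) and 4 that fell (Mobp, Mal, Plekhb1, Sox10) in Sham, TIA 24h and TIA 3d. Dots are animals, and bars give the mean ± SD, n = 3 per group. Lack of overlap was part of the rule that chose these genes, so in each of the 12 panels the 3 dots of TIA 3d lie apart from the 3 of TIA 24h. Over the panel 48.3% of genes had log2 values without overlap.

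In the interleukin-1 system Il1a and Nlrp3 rose, and Il1b and Il1rn fell, among 11 measured genes (11.6% of the panel rose and 7.53% fell) with a median log2 difference of -0.31 (0.03 median-centred, -1.25 under the lane total). Il1a, which encodes interleukin-1 alpha, had 9, 1 and 1 counts in TIA 24h mice and 134, 80 and 184 in TIA 3d mice. Its log2 values were 3.83, 0.89 and 0.92 against 6.23, 6.09 and 6.66, a difference of 4.45 (SE 0.82, adjusted p = 0.0229) whose size depends on 2 lanes at a single count. Nlrp3, the sensor of the inflammasome, rose by 1.52 (log2 difference, SE 0.49, adjusted p = 0.0474), without a call under the lane total. Il1rn, the antagonist of the interleukin-1 receptor, had log2 values of 4.83, 4.89 and 4.92 in TIA 24h mice and 2.97, 3.68 and 3.30 in TIA 3d mice. Its counts were 18, 16 and 16 against 14, 15 and 18. The log2 values lay apart while the counts overlapped, and Il1rn fell by 1.56 (SE 0.45, adjusted p = 0.0379). Il1b, which encodes interleukin-1 beta, went from 19, 8 and 17 counts to 24, 3 and 19 and fell by 1.77 in log2 values (SE 0.58, adjusted p = 0.0494). Neither fall was called in median-centred values. The receptors Il1r1, Il1r2, Il1rap and Il1rl2 and the caspase gene Casp1 did not pass.

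Among 10 measured chemokine and chemokine receptor genes, Ccl3 and Ccl4 were higher and Ccl5 and Cx3cl1 lower, beside 11.6% and 7.53% of the panel. The list's median log2 difference was -0.35 (-0.01 median-centred, -1.30 under the lane total). It ran from -0.61 to 0.16 when single TIA lanes were left out. Ccl3, a macrophage inflammatory chemokine, had 47, 18 and 21 counts in TIA 24h mice and 593, 117 and 1190 in TIA 3d mice. It rose by 2.60 log2 units (SE 0.74, adjusted p = 0.0373). Ccl4, a related chemokine, rose by 1.88 (SE 0.59, adjusted p = 0.0455), which was no longer called under the lane total. Ccl5, a chemokine that T cells also make, had 7, 6 and 8 counts in TIA 24h mice and 4, 3 and 10 in TIA 3d mice. Its log2 values fell by 1.96 (SE 0.46, adjusted p = 0.0229) while the counts overlapped. Cx3cl1, the mainly neuronal ligand of the microglial receptor CX3CR1, fell by 1.69 (SE 0.45, adjusted p = 0.0304), from 15, 10 and 9 counts to 14, 6 and 10. Ccl2, a monocyte attractant, and Cxcl10, an interferon-induced chemokine, did not pass (log2 differences 1.24 and 0.29).

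Of the inflammatory signalling families, 3 of 13 NF-kB genes rose and none fell, and the panel shares to read this paragraph against are again 11.6% higher and 7.53% lower. These were the subunits Rela and Nfkb2 and the inhibitor Nfkbia. Rela had 3, 1 and 5 counts in TIA 24h mice and 35, 17 and 50 in TIA 3d mice and rose by 2.19 log2 units (SE 0.58, adjusted p = 0.0304), with 2 TIA 24h lanes at or below the 10th percentile of their counts. Nfkbia rose by 1.89 (SE 0.61, adjusted p = 0.0474) and Nfkb2 by 1.62 (SE 0.51, adjusted p = 0.0455). Nfkb2, like Rela, had 2 TIA 24h lanes at or below that percentile. None of the 3 was called higher under the lane total, where the median of the list was -0.37 (0.57 as deposited, 0.91 median-centred). Among 26 TNF ligands and receptors only the receptors Tnfrsf1a (log2 difference 1.30) and Ltbr (1.79) rose, and the value of Ltbr was 1.15 without TIA 24h replicate 3. Ltbr also had 2 TIA 24h lanes at or below the 10th percentile of their counts. Neither of the 2 receptors was called under the lane total, where 12 of the 26 were called lower, beside 41.0% of the panel. The median of the TNF list was -0.60, or -0.26 median-centred and -1.55 under the lane total, and Tnf itself, with a log2 difference of 1.26, did not pass. Tlr7, a sensor of single-stranded RNA, had 11, 10 and 6 counts in TIA 24h mice and 175, 41 and 203 in TIA 3d mice and rose by 2.24 (SE 0.53, adjusted p = 0.0232). Irak3, a brake on Toll-like receptor signalling, fell by 1.68 (SE 0.39, adjusted p = 0.0229) on the log2 scale, from 11, 9 and 8 counts to 9, 7 and 8. The latter were close to the 10th percentile of the TIA 3d lanes (8, 7 and 7 counts). Background subtraction left Irak3 at its floor of 1 count in all 3 TIA 3d lanes. The Irak3 log2 difference of -3.87 after that subtraction therefore rests on the floor. The other 9 genes of the Toll-like receptor list, with Tlr2 and Tlr4 among them, did not pass, and the median of 0.90 (1.24 median-centred) was -0.04 under the lane total. In the type I interferon list of 16 genes, the receptor chains Ifnar1 (1.83) and Ifnar2 (1.47) and the transcription factor Irf1 (1.51) rose, and Siglec1 and Zbp1 fell. Ifnar1 had 2 TIA 24h lanes at or below the 10th percentile of their counts. The list's median was 0.63 (0.96 median-centred, -0.32 under the lane total), none of the 3 risers was called under the lane total, and neither fall was called when median-centred. The interferon-induced genes Irf7, Rsad2, Oas1g and Ifitm3 did not pass (-1.14 to 0.92). All 5 antigen presentation genes, with Cd74 (0.07) and Cd86 (1.63, adjusted p = 0.0507) among them, stayed short of the threshold, and their median was 0.41 (0.75 median-centred, -0.54 under the lane total).

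Immediate early genes respond within minutes to stimulation and to tissue dissociation. In a list of 12 immediate early and stress-induced genes, Fos, Egr1, Jun and Atf3 rose and Hspb1 fell (not called when median-centred), beside 11.6% and 7.53% of the panel. The list's median log2 difference was 0.22 (0.56 median-centred, -0.73 under the lane total). Egr1, a zinc finger transcription factor, had log2 values of 5.41, 4.35 and 5.31 in TIA 24h mice and 7.96, 7.65 and 7.70 in TIA 3d mice. Its counts were 27, 11 and 21 against 444, 235 and 379. Egr1 rose by 2.75 log2 units (SE 0.56, adjusted p = 0.0229), and the groups did not overlap. Atf3, a stress-induced transcription factor, went from 10, 8 and 7 counts to 198, 122 and 303 and rose by 3.09 (SE 0.66, adjusted p = 0.0229). Jun, a subunit of AP-1, went from 36, 24 and 17 counts to 397, 278 and 369 and rose by 2.35 (SE 0.58, adjusted p = 0.0245). The transcription inhibitor actinomycin D was added to the solution that received the brains in all groups. The part of the dissociation in these differences was not tested.

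Metabolic and housekeeping families showed few calls. None of 8 hypoxia and hexose transport genes, 10 genes of oxidative stress defence and 12 autophagy genes passed as deposited, with median log2 differences of 0.43, -0.10 and 0.04. The panel as a whole had 19.2% of genes called. The 3 medians were 0.77, 0.24 and 0.38 when median-centred and -0.52, -1.05 and -0.91 under the lane total. The autophagy genes ran from -0.45 (Map1lc3a) to 0.76 (Atg5). Among 25 apoptosis genes, Bcl2a1a rose by 2.31 (log2 difference, SE 0.62, adjusted p = 0.0308), and Bik and Casp9 fell, neither with a call when median-centred. The median of the list was 0.02 (0.36 median-centred, -0.93 under the lane total). Bcl2a1a has near-identical paralogs, so its probe may count them too. Hpgds, the haematopoietic prostaglandin D synthase, rose by 2.55 (SE 0.73, adjusted p = 0.0379), from 15, 13 and 6 counts to 182, 119 and 230, and was the 1 called gene of 7 in eicosanoid synthesis, whose median was 0.12 (0.45 median-centred, -0.83 under the lane total). Of 38 genes for DNA replication and repair, Pcna, the sliding clamp of DNA polymerase, rose by 1.89 (SE 0.59, adjusted p = 0.0440), and Chek1 and Fancd2 fell, the latter without a call when median-centred, while the median was -0.42 (-0.08 median-centred, -1.37 under the lane total). Under the lane total Pcna was not called and 14 of the 38 were called lower, beside 41.0% of the panel. The replicative helicase genes Mcm2, Mcm5 and Mcm6 did not pass (-1.07, -0.42 and -0.03). Of 53 chromatin regulators, Ezh2, Kdm4d and Setd7 fell and none rose, beside 7.53% of the panel called lower. When median-centred 1 of the 53 was called lower and under the lane total 20, beside 2.77% and 41.0% of the panel. The list's median log2 difference was -0.15 (0.19 median-centred, -1.10 under the lane total). The share of counts on the chromatin list was 6.52%, 6.78% and 7.04% in TIA 24h mice and 3.62%, 3.76% and 2.68% in TIA 3d mice. The groups did not overlap in this share, as in most lists, and the Sham lanes ran from 3.82% to 7.35%. The summed counts lay apart the other way, 713, 537 and 510 against 1863, 1098 and 1687.

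**Figure D3:**
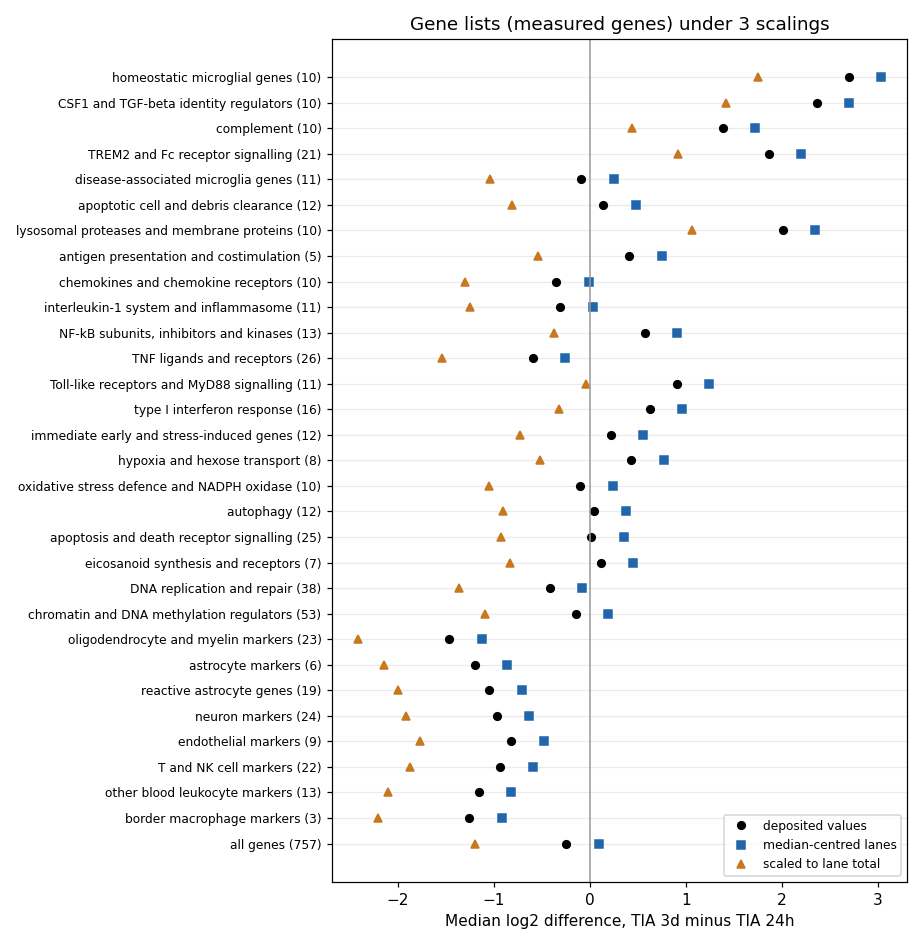
Median log2 difference, TIA 3d minus TIA 24h, of 30 gene lists and of all 757 genes (horizontal axis, log2 units), as deposited, median-centred and scaled to the lane total. Each marker is the median over the measured genes of a list. Homeostatic genes (2.70, 3.04 and 1.75) stay right of 0 and oligodendrocyte genes (-1.46, -1.13 and -2.41) stay left of 0 on each of the 3 scales, and the chromatin list (-0.15, 0.19 and -1.10) changes side.

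Markers of other cells were lower in TIA 3d mice where they passed. Of 23 measured oligodendrocyte and myelin genes, 13 fell and none rose, beside 7.53% and 11.6% of the panel. The list's median log2 difference was -1.46, the same as equal counts give (-1.13 median-centred, -2.41 under the lane total). In median-centred values 4 of the 23 were called lower and under the lane total 21, beside 2.77% and 41.0% of the panel. Mobp, a structural protein of myelin, had log2 values of 6.81, 6.59 and 6.13 in TIA 24h mice and 3.49, 4.73 and 4.26 in TIA 3d mice. Its counts were 71, 52 and 37 against 20, 31 and 35, lower in TIA 3d mice in every lane although those lanes were deeper. Mobp fell by 2.35 log2 units (SE 0.46, adjusted p = 0.0229). Bcas1, a marker of oligodendrocytes that are forming myelin, went from 26, 19 and 14 counts to 11, 13 and 16 and fell by 2.00 (SE 0.42, adjusted p = 0.0229). Mal, a myelin proteolipid, had 47, 18 and 45 counts against 37, 14 and 24 and fell by 2.00 (SE 0.62, adjusted p = 0.0421). Sox10, the lineage transcription factor, had 20, 31 and 19 counts against 24, 23 and 24 and fell by 1.41 (SE 0.46, adjusted p = 0.0474), a difference close to that of equal counts.

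As a share of all counts the 23 oligodendrocyte genes made up 7.35%, 4.40% and 7.38% in TIA 24h mice (mean 6.38% ± 1.7, SD, n = 3) and 0.955%, 1.06% and 0.577% in TIA 3d mice (0.865% ± 0.25, n = 3), 7.38-fold lower. The groups did not overlap in this share, as in most lists. The Sham lanes, at 1.13%, 7.66% and 2.94%, spanned both. The summed counts themselves were 803, 349 and 535 in TIA 24h mice and 492, 310 and 363 in TIA 3d mice and did overlap. The share was higher in TIA 24h mice where the shares of the homeostatic, identity regulator, complement, TREM2 and lysosomal lists were lower, and its part in those differences was not tested.

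Astrocyte, neuronal, endothelial and leukocyte lists had negative medians on all 3 scales. S100b, a calcium-binding protein of astrocytes and some oligodendrocytes, had 10, 9 and 8 counts in TIA 24h mice and 4, 4 and 6 in TIA 3d mice and fell by 2.43 log2 units (SE 0.44, adjusted p = 0.0229), to below the 10th percentile of counts in each TIA 3d lane. The S100b log2 difference was -3.79 after background subtraction, which set all 3 TIA 3d lanes to its floor of 1 count. The size of that value therefore rests on the floor. S100b was the 1 called gene of 6 astrocyte markers, whose median log2 difference was -1.20. Of 24 neuronal genes, 2 fell and none rose, beside 7.53% of the panel called lower. Under the lane total 22 of the 24 were called lower, beside 41.0% of the panel. Gria2, a glutamate receptor chain, fell by 2.13 on the log2 scale, without a call when median-centred, and the list's median was -0.97. The tight junction gene Cldn5 fell by 1.92, with 15, 9 and 12 counts against 5, 9 and 14, and the receptor gene Flt1 by 1.77, as 2 of 9 endothelial markers. Among 22 T and NK cell markers 5 fell (beside 7.53% of the panel), with Klrk1, Nkg7 and Tbx21 among them, and the median was -0.93. When median-centred, 2 of the 22 were called lower, and the summed counts were 173, 194 and 140 against 244, 245 and 214, higher in TIA 3d mice. Of 13 markers of other blood leukocytes 3 fell (Fpr1, Cpa3 and Ms4a2), with a median of -1.16 and none called lower when median-centred, and summed counts of 109, 117 and 97 against 140, 131 and 150. Reactive astrocyte genes fell in 4 of 19 cases (Serpina3n, Cp, Ptx3 and Timp1) and in 2 when median-centred, with a median of -1.05. Of 3 markers of border macrophages, Siglec1 fell by 1.26, without a call when median-centred, and Cd163 (-0.55) and Marco (-1.26) did not pass. No gene of the neuronal, endothelial or blood leukocyte lists had more than 33 counts in any of the 6 lanes. The neuronal list took 2.00% to 2.44% of counts in TIA 24h mice and 0.420% to 0.795% in TIA 3d mice, while its summed counts were 177 to 219 and 232 to 264.

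**Figure D4:**
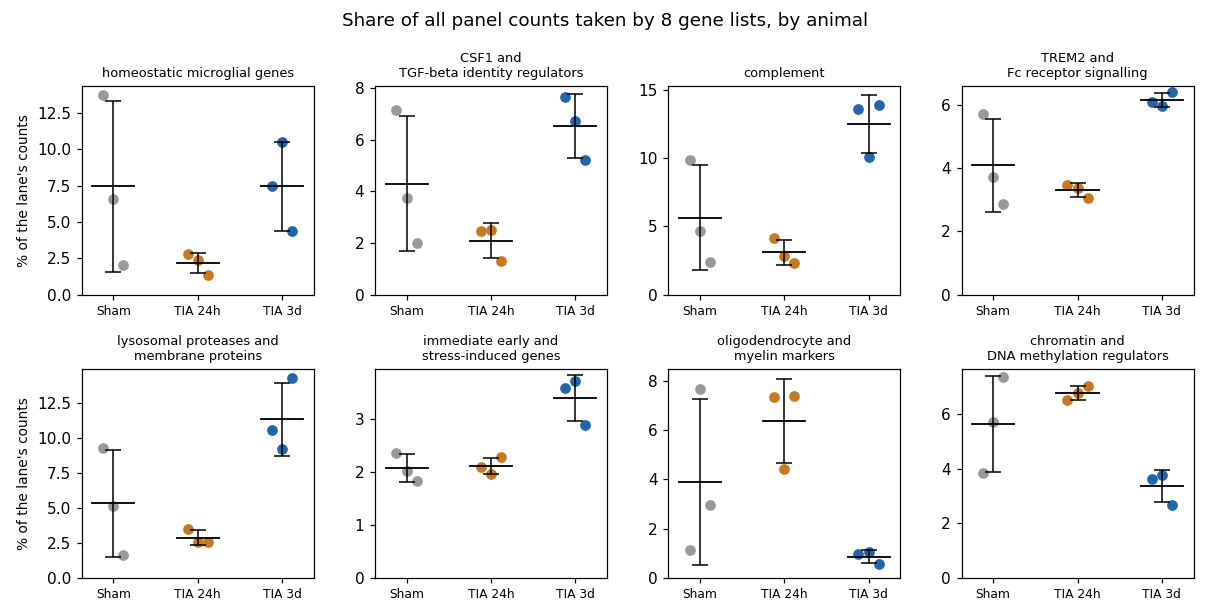
Share of all recovered counts of a lane (vertical axes, percent, from 0) taken by 8 gene lists in Sham, TIA 24h and TIA 3d. Dots are animals, and bars give the mean ± SD, n = 3 per group. The homeostatic list lies between 1.38% and 2.77% in TIA 24h mice and between 4.38% and 10.5% in TIA 3d mice, and the oligodendrocyte list between 4.40% and 7.38% and between 0.577% and 1.06%.

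Promoters of the called genes were read for the core motif of PU.1, the transcription factor on which microglia depend, and for an NF-kB site. RefSeq promoters (mouse, GRCm38.p6, the 250 bases before the start) matched 595 of the 757 genes. The letters GAGGAAGT, on either strand, were present in 7 of 73 higher genes (9.59%), in 0 of 47 lower genes and in 16 of 475 genes that did not pass (3.37%), against 2.79% of the 27025 promoters of the table. No test was made of this description. The 7 genes were Bcl2a1a, C1qc, Hpgds, Inpp5d, Pik3cg, Slamf9 and Tmem206. The letters GGGACTTTC, on either strand, were present in 1 of 73 higher genes, Nfkb2, in 0 of 47 lower genes, in 5 of 475 genes that did not pass (1.05%) and in 0.337% of all promoters. The share among higher genes (1.37%) was thus near that of the panel (1.01%). The promoters of C1qc (chr4:136892915-136893164, minus strand), Hpgds (chr6:65144731-65144980, minus strand) and Nfkb2 (chr19:46305680-46305929, plus strand) are shown because these 3 genes rose and hold a motif, which is in capitals. Each is written in the direction of the gene and ends at the base before the start. In C1qc the PU.1 core lies on the opposite strand and so reads ACTTCCTC.
C1qc: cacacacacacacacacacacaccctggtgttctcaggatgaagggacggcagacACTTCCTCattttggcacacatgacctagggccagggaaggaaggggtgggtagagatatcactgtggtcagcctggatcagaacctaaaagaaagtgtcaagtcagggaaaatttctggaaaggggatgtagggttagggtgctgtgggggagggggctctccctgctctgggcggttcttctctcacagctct
Hpgds: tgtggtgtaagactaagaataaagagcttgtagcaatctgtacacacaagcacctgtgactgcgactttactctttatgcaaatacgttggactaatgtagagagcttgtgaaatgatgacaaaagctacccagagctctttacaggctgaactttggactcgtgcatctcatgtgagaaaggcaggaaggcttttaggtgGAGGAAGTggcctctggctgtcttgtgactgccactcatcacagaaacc
Nfkb2: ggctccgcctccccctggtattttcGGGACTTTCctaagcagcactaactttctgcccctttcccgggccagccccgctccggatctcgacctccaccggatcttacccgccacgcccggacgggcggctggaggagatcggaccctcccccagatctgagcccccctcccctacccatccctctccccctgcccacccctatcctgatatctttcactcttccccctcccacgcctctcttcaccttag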

How the data were processed

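CD45+CD11b+ cells labelled as microglia from 3 animals per group (Sham, TIA 24h, TIA 3d) were measured with an nCounter neuroinflammation panel, and groups were taken from the sample titles. The authors deposited log2 normalized counts. Per the methods, lane counts were divided in ROSALIND by the geometric mean of housekeeping probes chosen by geNorm. The authors left genes below the highest negative control out of their analysis. Whether these are missing from the table too, and whether counts of 0 were raised to 1, is not given in the sources used here. No control or housekeeping probe was used. Whole counts were recovered from the deposited log2 values, and 100% of the values were whole within 0.01 counts. Symbols matched RefSeq directly for 750 genes and through older symbols for 7.

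Deposited values were fitted with limma 3.58.1 (R 4.3.3), 1 mean per group over all 9 samples, as a moderated, two-sided contrast of TIA 3d minus TIA 24h, with Benjamini-Hochberg adjustment over 757 genes. The authors' own test, an analysis of variance with a permutation-based false discovery rate, was not repeated. Scripts were tested on simulated data. Named genes were first the 8 largest rises and falls (4 falls qualified) among called genes with a mean count of at least 20. Their log2 values also had to lie apart between the groups. Added were the 3 genes of smallest p in each of 30 lists. Last came the 8 smallest p among genes called in the same direction as deposited, median-centred and under the lane total. These made 94 genes. Other genes, with Gpr34, Inpp5d and Il1b among them, are further list members or are said to be picked after their values were seen. Lists, members and this rule were chosen with earlier results of these data known. Alternatives changed the scaling, the samples, the variance model, the background and the filter, left out each sample, and added the total count or the replicate number. As an alternative chosen after seeing the data, calls were kept only where unscaled counts lay apart. Intervals for counts were not computed, and the error given is that between animals. A few genes are not reported here.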

Additional observations from a re-analysis of the deposited data

How the results depend on the processing

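The count of 145 genes was 249 with only the 6 samples compared, 344 when scaled to the lane total, 7 after quantile normalization, 94 after subtracting a lane background, 314 with array weights and 91 when unscaled counts also had to lie apart. It was 0 with an ordinary linear model (257 unadjusted) and 0 with the log2 total count as a covariate (35 unadjusted). Total counts of the TIA 24h and TIA 3d lanes did not overlap. It stayed within 1.5 times of 145 when median-centred (144), with genes of at least 20 mean counts (97 of 291 tested, 92 higher and 5 lower), with an intensity trend (177) and with voom (97, of which 16 higher and 81 lower). Leaving out single samples gave 0 to 226 genes. Besides the 4 fits without any call given above, these were 226, 90 and 219 without Sham replicate 1, 2 or 3, 85 without TIA 24h replicate 1 and 114 without TIA 3d replicate 2. Without single TIA lanes the list medians ran from 0.31 to 0.77 (NF-kB), -0.82 to -0.33 (TNF) and 0.34 to 0.74 (type I interferon). The medians of the apoptosis, apoptotic cell clearance, autophagy, chemokine, disease-associated and eicosanoid lists changed sign in some of these fits. With the replicate number as a block 140 genes passed, 130 of them shared with the 145. Same-numbered samples correlated at 0.0942, 0.271 and 0.147 in their deviations from the group means, so the numbers were not taken to pair animals.

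Of 94 named genes, 4 changed sign under the lane total, with log2 differences of Atg5 -0.19, Becn1 -0.33, Ldha -0.068 and Rb1cc1 -0.37, and none of these 4 was called as deposited. With the total count as a covariate, no gene passed and 38 changed sign, with log2 differences of Anxa1 0.75, Apoe -2.92, Atf3 -0.14, Atg5 -0.39, Bcl2a1a -0.67, Becn1 -0.23, C1qa -0.49, C1qb -1.12, C1qc -0.28, Ccl3 -1.28, Ccl4 -0.37, Cd163 0.65, Cd40 0.45, Cd86 -0.52, Cpa3 0.44, Csf1r -0.21, Ctss -1.30, Fcrls -0.71, Gja1 0.13, Grn -0.70, Hpgds -0.98, Itgb5 -0.10, Jun -0.071, Lgmn -1.79, Marco 0.52, Mertk -0.87, Ncf1 -1.38, Nfkbia -0.69, Nlrp3 -0.11, Pcna -0.58, Ptger3 0.77, Slco2b1 -0.54, Sox10 0.20, Tgfbr1 -0.34, Tmem119 -0.39, Tnfrsf4 0.26, Tyrobp -0.37 and Vegfa 0.74. The cause was not tested. Depth limits the genes with a mean under 20 counts, where a difference of a few counts moves the log2 value.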

Other observations

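Of the 309 genes in none of the lists, 27 rose and 12 fell in TIA 3d mice (11.6% and 7.53% over the whole panel), and the genes named here were picked after their values were seen. Mpeg1, which encodes the pore-forming protein perforin-2 of macrophages, had 36, 23 and 13 counts in TIA 24h mice and 535, 342 and 795 in TIA 3d mice and rose by 3.11 log2 units (SE 0.69, limma adjusted p = 0.0229). Rab7, a GTPase of late endosomes, rose by 2.08 (log2 difference, SE 0.52, adjusted p = 0.0249), and Tcirg1, a subunit of the vacuolar proton pump, by 1.99 (SE 0.61, adjusted p = 0.0421). Both lost their call under the lane total, and Mpeg1 kept it.

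Ribosomal protein genes, a group also chosen after their values were seen, rose in 7 of 9 measured cases (11.6% of the panel did), with a median log2 difference of 1.84 (-0.11 to 2.43). Rps9 had 45, 19 and 28 counts in TIA 24h mice and 394, 229 and 554 in TIA 3d mice and rose by 2.21 (SE 0.52, adjusted p = 0.0232). Under the lane total 1 of the 9 was called higher. Rps3 had 8, 7 and 13 counts against 18, 21 and 32 and a log2 difference of -0.11 (adjusted p = 0.870).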
